A study of Saccharomyces cerevisiae with 66 samples.

Results

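This account follows the messenger RNA of diploid budding yeast (Saccharomyces cerevisiae) in which either of 2 decapping partners, Lsm1 or Pat1, carried an auxin degron. It uses the 12 libraries of the LSM1 and PAT1 strains, picked by their sample titles out of 66 libraries in the series, with 6 libraries of the untagged strain (WT) as background. Cells were kept in acetate sporulation medium, which starves them of nitrogen and starts meiosis. Indole-3-acetic acid (IAA, auxin) at 500 µM and copper sulphate at 50 µM went in 3 h into sporulation, according to the treatment text, and every title reads 4 h. There are 3 IAA and 3 DMSO libraries per strain.

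All 3 strains are labelled diploid, MATa/alpha, with ho::LYS2 and lys2, with ura3 and leu2::hisG, and with trp1::hisG. The LSM1 and PAT1 groups share his3:p550 and differ in the tagged gene, which is LSM1-3V5-IAA7:KanMX in one and PAT1-3V5-IAA7:KanMX in the other, with a number after KanMX that differs from library to library. The WT titles name the TIR ligase, the plant receptor that marks a degron-tagged protein for destruction in auxin, and the WT genotype names no tag. The labels do not state whether DMSO cultures also received copper, how many clones stand behind a strain, or whether replicates are separate cultures, so p-values measure only the spread between these libraries. Protein was not measured, so how far Lsm1 or Pat1 was depleted is unknown.

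Yeast Lsm1 is the subunit that sets the cytoplasmic ring of Lsm1 to Lsm7 apart from the nuclear ring of Lsm2 to Lsm8, which holds the U6 spliceosomal RNA. The cytoplasmic ring binds the shortened poly(A) end of a messenger together with Pat1. Pat1 in turn contacts the helicase Dhh1 and the decapping enzyme, whose catalytic subunit is Dcp2 with Dcp1 as its partner. Decapped messengers are then degraded from the 5′ end by Xrn1.

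Because Lsm1 and Pat1 act in one complex, the question was where the response to the additions, IAA and copper, differs between the strains. A change is IAA minus DMSO on the log2 scale within a strain. The quantity tested is the LSM1 change minus the PAT1 change, called here the contrast, where 0 means equal changes. Abundances are CPM, read counts scaled to 1 M after correction of library size, and each fit is a limma fit with adjustment over 5828 genes and a threshold of 0.05.

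The 12 libraries held 19.2 to 28.3 M counts, so 3 counts correspond to 0.106 to 0.156 CPM, a floor that covers counting error only. One library stands apart. The first LSM1 IAA library lay closer to the mean of the LSM1 DMSO libraries than to the other LSM1 IAA libraries (root mean square log2 distance 0.657 against 0.893). It scored -21.1 on the first principal component, beside -50.0 and -51.4 for the other LSM1 IAA libraries and -5.32 to -26.5 for LSM1 DMSO. It did carry the copper response, with the metallothionein gene CUP1-1 (YHR053C) at 4775 CPM. LSM1 IAA libraries also varied most among themselves, with a median SD of 0.315 log2 over genes, against 0.216 in LSM1 DMSO and 0.150 and 0.157 in PAT1 DMSO and IAA. Counts per list are given with and without that library where its removal moved them by over 1.5 times.

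The LSM1 and PAT1 strains changed differently in 165 of 5828 genes (2.83%), of which 76 (1.3%) had a higher and 89 (1.53%) a lower change in LSM1. Within strains the additions changed 1079 genes in LSM1 (18.5%, 8.13% higher and 10.4% lower) and 78 in PAT1 (1.34%, 1.06% higher and 0.275% lower). Which strain had more changed genes turned with the weighting, since a fit that weighted each group by its own spread called 167 in LSM1 and 300 in PAT1, and that fit with the replicate block called 387 and 1336. Among the 76, the median change was 0.88 in LSM1 and -0.05 in PAT1, and among the 89 it was -0.68 and 0.18. The LSM1 change was the larger in size in all but 9 of the 76 and 13 of the 89. Over all genes the median size of a change was 0.259 log2 in LSM1 and 0.160 in PAT1, and the median contrast was 0.01.

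How many genes passed depended on how the spread was modelled. A fit with strain and number as a block took same-number IAA and DMSO libraries within a strain as pairs. It called 993 genes (17%, 7.31% higher and 9.73% lower), all 165 among them. That pairing was read from the data and is less clear in LSM1 than in PAT1. A fit to the 12 libraries alone called 4 of 5687 (0.0703%), and a fit that weighted each group by its own spread called 16 (0.275%). The reported fit shares 1 spread per gene over 66 libraries, with 44 residual degrees of freedom against 8 for the 12 alone. In the weighted fit LSM1 IAA had a weight of 0.293 and PAT1 DMSO 1.45, so the shared spread can be too small for LSM1 IAA. Without the first LSM1 IAA library the count was 988 (17%, 8.37% higher and 8.58% lower), while without the second or the third it was 68 and 52. It was 92 without the third LSM1 DMSO library, 97 and 51 without the first and the third PAT1 IAA libraries, and 63 and 83 without the second and the third PAT1 DMSO libraries. With total-count scaling 70 genes were higher and 120 lower.

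**Figure D1:**
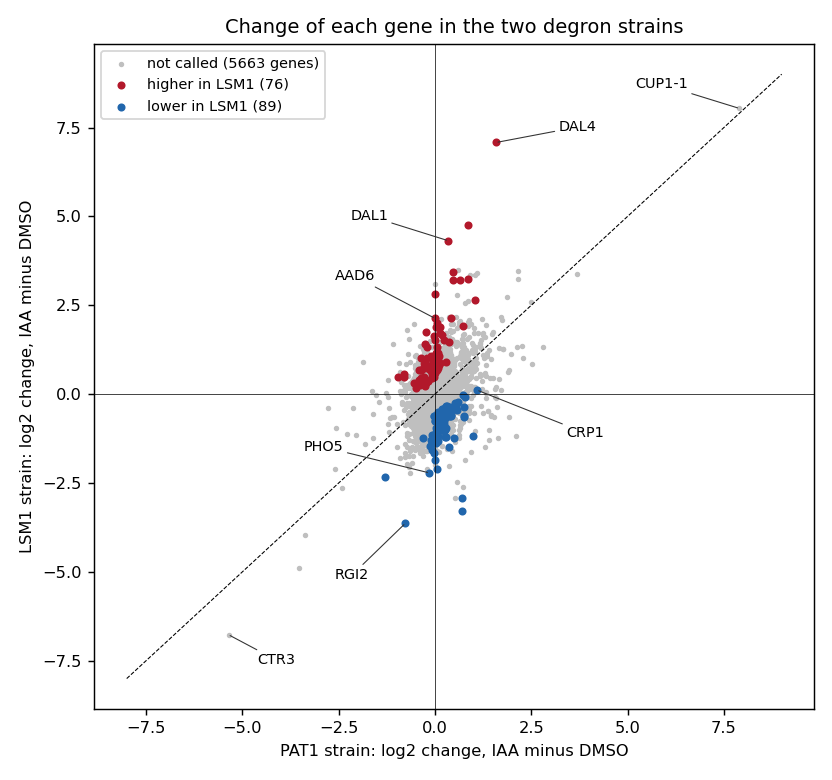
Change in LSM1 (vertical axis, log2 IAA minus DMSO) against change in PAT1 (horizontal axis, log2) with 1 point per gene tested; red and blue points are the 76 and 89 genes called higher and lower in the contrast, grey points were not called, and the dashed line marks equal changes. DAL4 lies at 7.08 on the LSM1 axis and 1.59 on the PAT1 axis, and CUP1-1, which was not called, lies at 8.04 and 7.90.

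**Figure D2:**
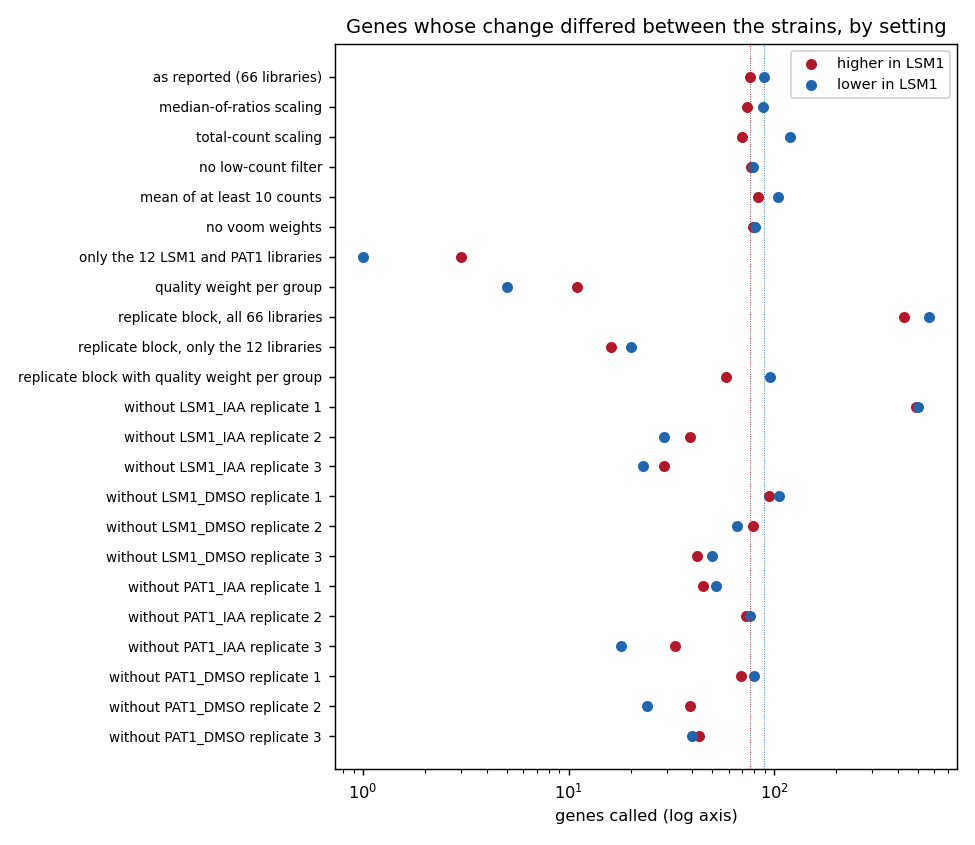
Number of genes called in the contrast (horizontal log axis, genes), higher in red and lower in blue, for each processing setting and each library left out (vertical axis). The counts as reported are 76 and 89, those with the replicate block over 66 libraries are 426 and 567, and those without the first LSM1 IAA library are 488 and 500.

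Of the called genes, 3 passed under every alternative processing tried and with every single library left out, and they were named after their values were seen, apart from AAD6. CCZ1 (YBR131W), part of the factor that activates the vacuolar GTPase Ypt7, stood at 15.4, 18.6 and 19.1 CPM in LSM1 DMSO and 48.5, 53.6 and 64.3 in LSM1 IAA. In PAT1 it stood at 22.2, 23.3 and 24.3 CPM in DMSO and 23.4, 23.6 and 20.9 in IAA. The LSM1 groups do not overlap and the PAT1 groups do, and the contrast was 1.68 ± 0.24 (SE, limma adjusted p 1.85e-05, alternatives 1.4e-05 to 0.0246).

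MUP3 (YHL036W), a low-affinity methionine permease, stood at 27.9, 31.8 and 31.6 CPM in LSM1 DMSO and 75.4, 82.1 and 84.7 in LSM1 IAA. The PAT1 strain had 45.3, 49.5 and 54.6 CPM in DMSO and 39.9, 44.7 and 40.1 in IAA. All LSM1 IAA libraries are high and all PAT1 IAA libraries are slightly below their DMSO libraries. The contrast was 1.66 ± 0.29 (SE, limma adjusted p 0.000975, alternatives 0.000286 to 0.0263).

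AAD6 (YFL056C), a putative aryl-alcohol dehydrogenase, stood at 39.9, 49.9 and 42.2 CPM in LSM1 DMSO and 216, 132 and 251 in LSM1 IAA. For PAT1 the values were 77.4, 73.8 and 68.9 CPM in DMSO and 71.9, 81.6 and 67.0 in IAA. Only the LSM1 groups are apart, and in DMSO the LSM1 strain was below the PAT1 strain (-0.74 ± 0.23, SE, limma adjusted p 0.00901). The contrast was 2.13 ± 0.32 (SE, limma adjusted p 3.96e-05, alternatives 3.09e-05 to 0.0438), and the change in WT was 0.09.

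Of the 8 messengers of the complex itself 2 passed, both lower in the contrast, where 1.53% of all genes were lower, with a median of -0.33 beside 0.01 for all genes. In LSM1 3 of the 8 fell, LSM1, LSM2 and LSM4, where 10.4% of all genes fell, and without the first LSM1 IAA library LSM4 also passed in the contrast (limma adjusted p 0.0303). LSM1 (YJL124C) stood at 37.9, 35.3 and 38.9 CPM in its own strain in DMSO and 26.0, 23.9 and 23.6 in IAA. In the PAT1 strain it stood at 54.2, 50.3 and 54.9 CPM in DMSO and 50.4, 51.4 and 54.8 in IAA, beside 55.7, 62.5 and 59.1 in WT with DMSO. The LSM1 messenger, tagged only in the LSM1 strain, is thus lowest there with IAA, already low there in DMSO, and level in PAT1. WT with IAA stood at 48.9, 50.0 and 49.7 CPM, a change of -0.26. The LSM1 change minus the WT change was -0.35 ± 0.16 (SE, limma adjusted p 0.509), so it did not pass against WT.

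The contrast for LSM1 was -0.58 ± 0.16 (SE, limma adjusted p 0.0301, alternatives 0.0011 to 0.242). It lost its call in 6 of the 12 fits that left out 1 library: without the second (0.0770) or the third (0.100) LSM1 IAA library, the third LSM1 DMSO library (0.0707), the third PAT1 IAA library (0.108), or the second (0.0946) or the third (0.0510) PAT1 DMSO library, as limma adjusted p. PAT1 (YCR077C) stood at 122, 168 and 169 CPM in its own strain in DMSO and 138, 157 and 174 in IAA. In the LSM1 strain it stood at 226, 193 and 250.3 CPM in DMSO and 195, 173 and 195 in IAA. The PAT1 groups overlap fully, PAT1 was higher in the LSM1 strain in DMSO (0.55 ± 0.12, SE, limma adjusted p 0.000391), and the contrast was -0.29 ± 0.17 (SE, limma adjusted p 0.370).

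LSM3 (YLR438C-A), a subunit of both Lsm rings, had a lower contrast through a rise in the PAT1 strain. It stood at 45.6, 36.8 and 37.2 CPM in PAT1 DMSO and 60.8, 67.2 and 68.5 in PAT1 IAA. In LSM1 it stood at 42.0, 56.0 and 42.7 CPM in DMSO and 51.9, 43.1 and 42.1 in IAA. LSM3 rose in PAT1 (0.72 ± 0.15, SE, limma adjusted p 0.00521) while the LSM1 groups overlap (-0.03 ± 0.15, adjusted p 0.912), and the contrast was -0.75 ± 0.22 (SE, limma adjusted p 0.0431, called in 3 of 12 fits that left out 1 library, adjusted p up to 0.136).

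The other ring subunits did not pass in the contrast, with values of -0.30 for LSM2, -0.56 for LSM4, -0.11 for LSM5, -0.36 for LSM6 and -0.11 for LSM7 and limma adjusted p from 0.199 to 0.823. Within the LSM1 strain LSM2 fell by 0.41 (SE 0.12, limma adjusted p 0.0127) and LSM4 fell by 0.54 (SE 0.17, adjusted p 0.0211). In WT LSM2 changed by -0.40 and LSM4 by -0.31. The LSM1 change minus the WT change was -0.004 and -0.24 (limma adjusted p 0.998 and 0.875), so neither fall was set apart from WT by test. LSM5 overlaps another annotated gene in RefSeq, so its counts may be shared.

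Of 11 genes for the decapping enzyme, its activators and Xrn1, 1 passed, lower in the contrast, where 1.53% of all genes were. Without the first LSM1 IAA library 2 did, both lower, where 8.58% of all genes were. EDC1 (YGL222C), a small activator of decapping, stood at 106, 85.4 and 81.4 CPM in LSM1 DMSO and 89.9, 54.3 and 73.9 in LSM1 IAA. In PAT1 it stood at 41.8, 43.3 and 38.9 CPM in DMSO and 55.0, 67.3 and 58.9 in IAA, and in WT with DMSO at 36.4, 35.6 and 30.1. EDC1 was high in LSM1 in DMSO and rose in PAT1 with IAA. That rise did not pass when the PAT1 change was set against the WT change.

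The EDC1 contrast was -0.89 ± 0.19 (SE, limma adjusted p 0.00836), called in all 12 fits that left out 1 library. It combined a rise of 0.54 ± 0.14 in PAT1 (SE, limma adjusted p 0.0283) with -0.34 ± 0.13 in LSM1 (SE, adjusted p 0.0605). In DMSO the LSM1 strain exceeded the PAT1 strain by 1.13 ± 0.14 and WT by 1.41 ± 0.14 (SE, limma adjusted p 2.73e-08 and 3.41e-10). After IAA the strains differed by 0.24 ± 0.13 (SE, adjusted p 0.133).

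The core enzymes did not pass in the contrast. Dcp2, the catalytic subunit, had a contrast of 0.20 ± 0.13 for its gene DCP2 (SE, limma adjusted p 0.419), and Dcp1 one of -0.10 ± 0.24 for DCP1 (SE, adjusted p 0.844). EDC3, a scaffold for decapping, stood at 0.08 ± 0.16 (SE, adjusted p 0.799) and XRN1 at 0.10 ± 0.21 (SE, adjusted p 0.828). DHH1, the helicase that Pat1 contacts, fell by 0.39 in LSM1 (SE 0.11, limma adjusted p 0.0101), and its contrast was -0.22 ± 0.16 (SE, adjusted p 0.487). In WT it changed by -0.27, and the LSM1 change minus the WT change was -0.12 (limma adjusted p 0.914). DHH1 was already lower in LSM1 than in PAT1 in DMSO, by -0.51 ± 0.12 (SE, limma adjusted p 0.000655).

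None of 9 CCR4-NOT deadenylase genes passed, and 1 of 15 genes for U6 and tri-snRNP proteins did, PRP6, at 0.55 ± 0.16 (SE, limma adjusted p 0.0431). Of all genes 1.3% were higher. PRP6 was called in 1 of the 12 fits that left out 1 library. The CCR4-NOT median was 0.12 and the U6 median 0.12. Leaving out the first LSM1 IAA library, 1 CCR4-NOT gene was higher, and 2 U6 genes were higher and 1 lower, with a U6 median of 0.25. That fit called 8.37% of all genes higher and 8.58% lower. In level after IAA, 5 of the 8 complex genes were lower in LSM1 than in PAT1, in a comparison that called 22% of all genes lower.

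A small group of genes changed in PAT1 and not detectably in LSM1. CRP1 (YHR146W), a protein known to bind cruciform DNA, stood at 855, 760.3 and 814 CPM in PAT1 DMSO and 1798, 1578 and 1799 in PAT1 IAA. In LSM1 it stood at 1209, 1451 and 1155 CPM in DMSO and 1630.0, 1321 and 1187 in IAA. The PAT1 groups are far apart and the LSM1 groups overlap, with a contrast of -0.98 ± 0.25 (SE, limma adjusted p 0.0209, called in 6 of 12 fits that left out 1 library).

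COQ21 (YBR230W-A) behaved the same way. It stood at 29.6, 25.0 and 23.9 CPM in PAT1 DMSO and 34.4, 52.1 and 49.4 in PAT1 IAA, against 75.0, 55.2 and 66.1 in LSM1 DMSO and 79.2, 53.3 and 54.7 in LSM1 IAA. Its contrast was -0.86 ± 0.23 (SE, limma adjusted p 0.0271, called in 4 of 12 such fits). CRP1 and COQ21 were both higher in LSM1 than in WT in DMSO, by 0.81 and 1.58 (limma adjusted p 0.000283 and 3.42e-09).

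Together with LSM3 these are the 3 genes that passed (0.0515% of those tested) when the PAT1 change was set against the change in WT. There LSM3 differed by 1.17, CRP1 by 1.30 and COQ21 by 1.35 (limma adjusted p 0.0117, 0.00779 and 0.0117). Both comparisons use the same PAT1 libraries, so these values are not separate evidence. The LSM1 minus PAT1 level went from 0.64 in DMSO to -0.34 in IAA for CRP1, and from 1.31 to 0.46 for COQ21.

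The genes AFT2, AGX1 and SKI7 fell in PAT1 and had a higher contrast. None of these falls passed when the PAT1 change was set against the WT change. AFT2 (YPL202C), an activator of iron genes, stood at 169, 179.7 and 239 CPM in PAT1 DMSO and 115, 102 and 115 in PAT1 IAA. In LSM1 it stood at 60.1, 109 and 76.7 CPM in DMSO and 85.3, 135 and 119.5 in IAA. With IAA the strains did not differ by test (0.01 ± 0.21, SE, limma adjusted p 0.979), and the contrast was 1.29 ± 0.29 (SE, adjusted p 0.0120, called in all 12 fits that left out 1 library).

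AGX1 (YFL030W), which makes glycine from glyoxylate, fell in PAT1 from 524, 642 and 562 CPM to 301, 305 and 288. In LSM1 it went from 539, 533 and 429 CPM to 577, 697 and 823. The contrast was 1.43 ± 0.34 (SE, limma adjusted p 0.0147), lost without the third LSM1 IAA library (adjusted p 0.0599, other settings 0.000991 to 0.155). AGX1 in WT went from 506, 471 and 521 CPM to 302, 334 and 333, in the same direction as PAT1.

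SKI7 (YOR076C), which links the Ski complex to the exosome, fell in PAT1 from 70.9, 71.5 and 89.5 CPM to 57.7, 53.8 and 53.3. In LSM1 it went from 60.5, 58.1 and 54.0 CPM to 71.0, 63.0 and 59.5. The contrast was 0.65 ± 0.17 (SE, limma adjusted p 0.0246, called in 8 of 12 fits that left out 1 library). AGX1 and SKI7 were picked after their values were seen.

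Genes for the use of allantoin and urea, poor nitrogen sources whose genes yeast switches on when better ones are gone, formed the group with the highest median contrast among the 33 lists. Of 11 tested, 6 had a higher change in LSM1, where 1.3% of all genes did, and none a lower one. The median contrast was 2.74. In the LSM1 strain 9 rose, where 8.13% of all genes did, with a median change of 3.21. In PAT1 none passed, with a median of 0.46. Without the first LSM1 IAA library 8 passed, where 8.37% of all genes were higher. Without another single library 2 to 8 did, in fits that called 29 to 94 genes higher in all. The count was 2 without the second or the third LSM1 IAA, the second or the third LSM1 DMSO or the third PAT1 IAA library. It was also 2 without the first or the second PAT1 DMSO library. It was 3 without the first PAT1 IAA or the third PAT1 DMSO library.

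DAL4 (YIR028W), the allantoin permease, stood at 8.58, 2.91 and 2.54 CPM in LSM1 DMSO and 375, 600.3 and 746 in LSM1 IAA. The PAT1 strain had 6.49, 4.64 and 3.87 CPM in DMSO and 6.04, 39.6 and 11.5 in IAA. All 3 LSM1 IAA libraries are high, and in PAT1 the second and the third IAA libraries are above all DMSO libraries, the second by most. In WT DAL4 went from 2.71, 3.04 and 3.37 CPM to 22.4, 11.2 and 8.29. The LSM1 change minus the WT change did not pass (limma adjusted p 0.197). The contrast was 5.49 ± 1.48 (SE, limma adjusted p 0.0290), the largest of the genes named by rule, and it was called in 3 of 12 fits that left out 1 library.

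DAL1 (YIR027C), allantoinase, the first enzyme of allantoin breakdown, stood at 4.46, 2.52 and 1.32 CPM in LSM1 DMSO and 34.1, 84.5 and 44.7 in LSM1 IAA. For PAT1 the values were 6.58, 7.02 and 5.11 CPM in DMSO and 7.09, 9.70 and 6.79 in IAA. The LSM1 groups are far apart and the PAT1 groups overlap. The contrast was 3.97 ± 0.74 (SE, limma adjusted p 0.00198), called in all 12 fits that left out 1 library, with values from 3.56 to 4.41.

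DCG1 (YIR030C), a neighbour of the DAL genes, went from 4.85, 1.06 and 1.02 CPM to 24.5, 87.2 and 55.7 in LSM1. In PAT1 it went from 0.998, 0.872 and 0.745 CPM to 1.28, 1.61 and 1.93, which is low but above the 3-count floor. Those groups do not overlap, though the PAT1 change of 0.85 did not pass (limma adjusted p 0.772). The contrast was 3.92 ± 1.00 (SE, limma adjusted p 0.0209, called in 7 of 12 such fits).

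DAL5 (YJR152W), the allantoate permease, stood at 495, 50.9 and 73.7 CPM in LSM1 DMSO and 1039.9, 1428 and 1609 in LSM1 IAA. In PAT1 it stood at 81.1, 67.5 and 63.4 CPM in DMSO and 72.9, 117 and 107 in IAA. The first LSM1 DMSO library is already high, as it was for other nitrogen genes. The contrast was 2.99 ± 0.88 (SE, limma adjusted p 0.0479, called in 2 of 12 such fits).

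The other 2 that passed are DUR3 and DAL7, named to complete the count. DUR3 (YHL016C), the urea transporter, stood at 202, 36.6 and 44.3 CPM in LSM1 DMSO and 182, 912 and 682 in LSM1 IAA, against 48.7 to 65.1 in the 6 PAT1 libraries. In the first pair of LSM1 libraries it did not go up at all. The contrast was 2.80 ± 0.64 for DUR3 and 2.74 ± 0.75 for DAL7, a malate synthase isoform (SE, limma adjusted p 0.0129 and 0.0329).

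The broader nitrogen permeases and their GATA regulators gave no call among 18 genes, with a median contrast of 0.32. GAP1 (YKR039W), the general amino acid permease, stood at 2508, 365 and 828 CPM in LSM1 DMSO and 2077, 6213 and 4792 in LSM1 IAA, against 302 to 573 in the 6 PAT1 libraries, with a contrast of 1.97 ± 0.77 (SE, limma adjusted p 0.151). MEP2 (YNL142W), an ammonium permease, stood at 2619, 69.1 and 274 CPM in LSM1 DMSO and 2134, 5220.3 and 5112 in LSM1 IAA, with a contrast of 2.31 ± 1.40 (SE, adjusted p 0.382). In both genes the first pair of LSM1 libraries is high with and without IAA, and in the other pairs the IAA library is the higher. Without the first LSM1 IAA library 6 of the 18 had a higher and 2 a lower change in LSM1, where 8.37% and 8.58% of all genes did.

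Sulfate and methionine genes were the second group with a shared direction. Of 27 tested, 9 had a higher change in LSM1 (1.3% of all genes did) and none a lower one, with a median contrast of 1.10. The replicate block called 15, where 7.31% of all genes were higher. In LSM1 23 rose (8.13% of all genes did), with a median change of 1.46. In PAT1 1 rose (1.06% of all genes did), with a median of 0.37. Without the first LSM1 IAA library 13 passed, where 8.37% of all genes were higher. The count was 3 without the third LSM1 IAA library and 5 without the third PAT1 IAA library. It was 6 without the second LSM1 IAA, the first PAT1 IAA or the second PAT1 DMSO library. The fits with counts of 3 to 6 called 29 to 45 genes higher in all.

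STR3 (YGL184C), a cystathionine beta-lyase, stood at 58.5, 39.5 and 52.9 CPM in LSM1 DMSO and 124, 273 and 229 in LSM1 IAA. The PAT1 strain had 21.8, 33.1 and 27.2 CPM in DMSO and 19.6, 38.0 and 28.0 in IAA. LSM1 was above PAT1 in both treatments and rose further. The contrast was 1.95 ± 0.44 (SE, limma adjusted p 0.0117, called in all 12 fits that left out 1 library).

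SUL1 (YBR294W), a high-affinity sulfate permease, went from 171, 54.2 and 90.8 CPM to 292, 310.0 and 480.1 in LSM1. In PAT1 it went from 81.7, 104 and 69.5 CPM to 86.0, 105 and 84.1. The groups overlap only in PAT1, and the contrast was 1.78 ± 0.41 (SE, limma adjusted p 0.0141, called in 10 of 12 such fits).

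MET1 (YKR069W), needed for the siroheme of sulfite reductase, went from 26.2, 36.5 and 41.6 CPM to 52.6, 207 and 185 in LSM1. In PAT1 it went from 36.7, 38.2 and 38.9 CPM to 35.1, 49.5 and 32.6. The first LSM1 IAA library is the lowest of its group yet above all LSM1 DMSO libraries. The contrast was 1.86 ± 0.49 (SE, limma adjusted p 0.0246, called in 5 of 12 such fits).

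MET3 (YJR010W), ATP sulfurylase, the first enzyme of sulfate assimilation, changed in both strains. It went from 66.1, 66.1 and 91.2 CPM to 386, 383 and 649.8 in LSM1 and from 50.5, 47.6 and 56.2 to 86.8, 128 and 107 in PAT1. The rises were 2.64 ± 0.29 and 1.04 ± 0.26 (SE, limma adjusted p 2.99e-09 and 0.0265), and the contrast was 1.59 ± 0.39 (SE, adjusted p 0.0176, called in 10 of 12 such fits). Both strains thus rose, LSM1 by more.

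MET4 (YNL103W), the activator of the sulfur genes, was named after its values were seen. It went from 108, 90.5 and 117 CPM to 171, 181 and 233 in LSM1 and from 80.2, 88.1 and 82.5 to 68.7, 95.2 and 78.2 in PAT1. Its contrast of 0.95 ± 0.21 (SE, limma adjusted p 0.00946) was called in all 12 fits that left out 1 library. The other 4 that passed were MHT1 at 1.53, MET32 at 1.10, CYS4 at 0.94 and MET22 at 0.93 (limma adjusted p 0.0117 to 0.0323).

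The next genes named by rule also had a higher change in LSM1. FRM2 (YCL026C-A), a nitroreductase-like protein, stood at 19.5, 10.9 and 18.0 CPM in LSM1 DMSO and 194, 75.6 and 225 in LSM1 IAA. For PAT1 the values were 10.7, 9.27 and 9.48 CPM in DMSO and 11.6, 33.8 and 12.7 in IAA. The contrast was 2.40 ± 0.58 (SE, limma adjusted p 0.0176, called in 9 of 12 fits that left out 1 library). FRM2 and AAD6 are the 2 that passed of 10 AAD and nitroreductase genes, where 1.3% of all genes were higher. The median contrast of that list was 0.14. When the first LSM1 IAA library was left out 3 of the 10 passed, where 8.37% of all genes were higher, and the median was -0.05.

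OPT1 (YJL212C), a transporter of oligopeptides and glutathione, went from 27.1, 9.27 and 23.3 CPM to 103, 188 and 241 in LSM1 and from 12.2, 12.0 and 11.0 to 13.8, 23.0 and 19.3 in PAT1. Both strains have IAA libraries above all their DMSO libraries, by far more in LSM1, and the contrast was 2.56 ± 0.59 (SE, limma adjusted p 0.0129, called in all 12 such fits). UPS2 (YLR168C), which acts in mitochondrial phospholipid transfer, went from 28.9, 60.0 and 33.5 CPM to 59.1, 235 and 159 in LSM1 and from 35.8, 44.0 and 39.9 to 31.1, 38.2 and 31.7 in PAT1. Each same-number LSM1 pair goes up and each PAT1 pair goes down, and the contrast was 1.99 ± 0.41 (SE, limma adjusted p 0.00491, called in all 12 such fits).

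STL1 (YDR536W), the glycerol importer, went from 36.5, 20.0 and 25.2 CPM to 175, 79.6 and 116 in LSM1. In PAT1 it went from 12.1, 11.0 and 17.8 CPM to 17.7, 18.7 and 16.7. The LSM1 groups are apart and the PAT1 groups overlap, with a contrast of 1.73 ± 0.45 (SE, limma adjusted p 0.0246, called in 6 of 12 such fits).

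**Figure D3:**
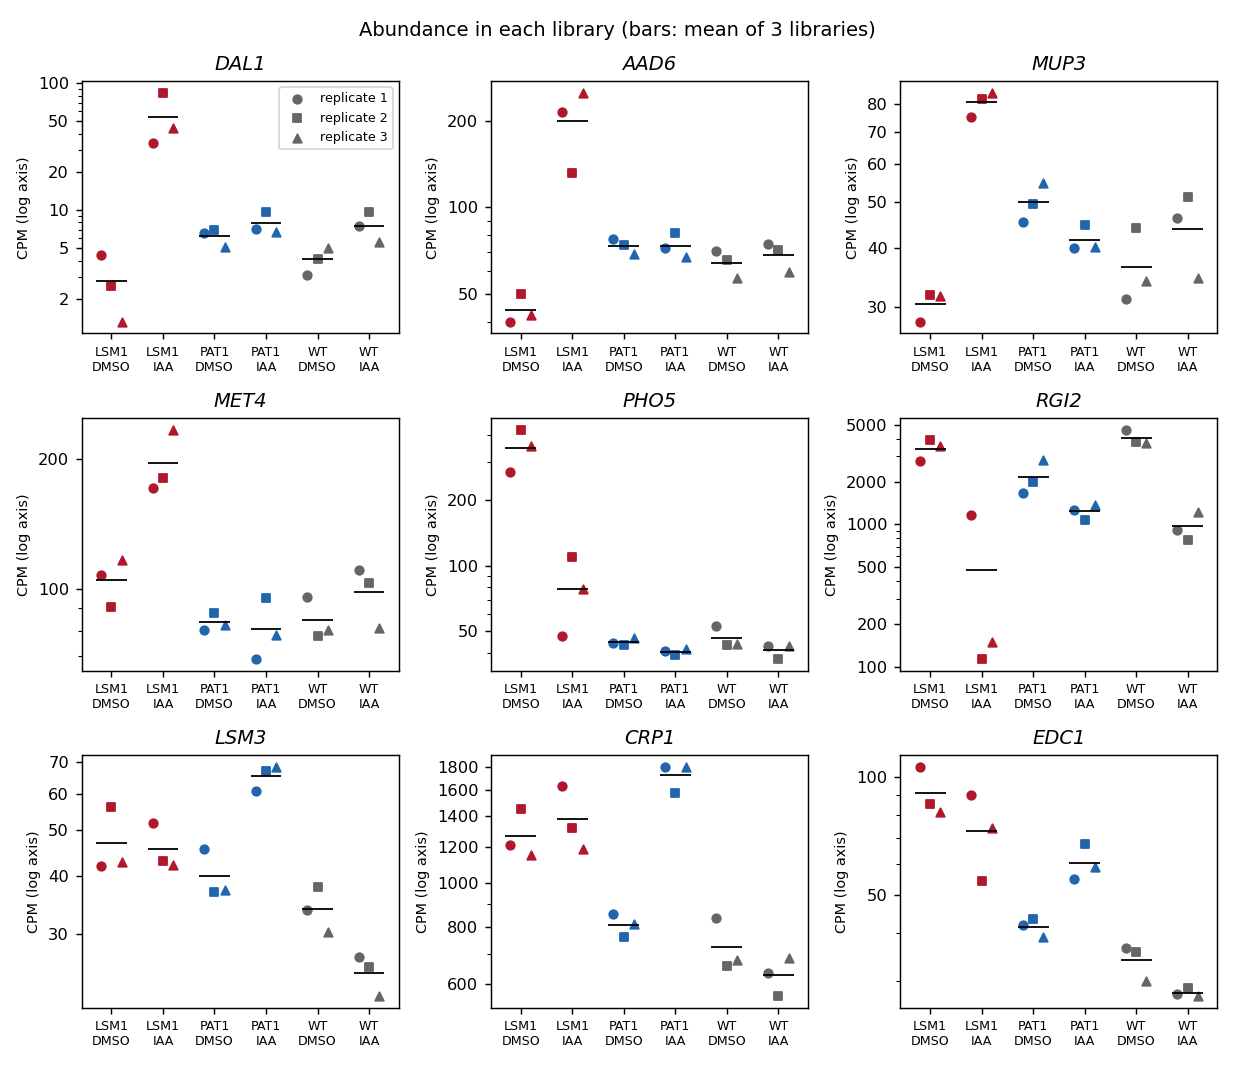
CPM (log axis) of 9 genes in each LSM1, PAT1 and WT library, DMSO and IAA side by side, with 1 marker per replicate and a bar for the mean of 3 libraries. DAL1, AAD6, MUP3 and MET4 are highest in LSM1 with IAA, PHO5 and RGI2 fall in LSM1, and LSM3, CRP1 and EDC1 rise in PAT1 with IAA.

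Phosphate starvation genes differed between the strains mainly in level. PHO5 (YBR093C), the secreted acid phosphatase, stood at 271, 423 and 355 CPM in LSM1 DMSO and 47.5, 109.7 and 78.6 in LSM1 IAA. In PAT1 it stood at 44.4, 43.2 and 46.6 CPM in DMSO and 40.7, 38.9 and 41.6 in IAA. LSM1 fell toward the PAT1 level without reaching it, and the contrast was -2.07 ± 0.25 (SE, limma adjusted p 6.32e-07, called in all 12 fits that left out 1 library).

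The PHO5 level in LSM1 exceeded that in PAT1 by 2.95 ± 0.18 log2 in DMSO and 0.88 ± 0.17 in IAA (SE, limma adjusted p 5.82e-17 and 4.44e-05). PHO5 has a close paralog, and reads may be split between them. Of 20 phosphate genes tested, 2 were lower in the contrast, where 1.53% of all genes were, with a median of -0.36. They were PHO5 and its activator PHO2 at -0.61 ± 0.18 (SE, limma adjusted p 0.0439). The replicate block called 9, all lower, where 9.73% of all genes were. Without the first LSM1 IAA library 3 passed, where 8.58% of all genes were lower, with a median of -0.18. PHO2 was called in 2 of 12 fits that left out 1 library.

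In level, 13 of the 20 were higher in LSM1 than in PAT1 in DMSO (18.9% of all genes were) and 12 in IAA (23.7% of all genes). PHO84 (YML123C), the high-affinity phosphate transporter, stood at 1953, 2154 and 2211 CPM in LSM1 DMSO and 594, 1560.0 and 1701 in LSM1 IAA. The PAT1 strain had 7.94, 79.4 and 20.5 CPM in DMSO and 3.11, 43.3 and 9.86 in IAA. The gap between strains is wide in every library pair, and its contrast was 0.13 ± 1.57 (SE, limma adjusted p 0.973).

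SPL2 (YHR136C), which restrains low-affinity phosphate uptake, went from 210.2, 223 and 190.3 CPM to 86.5, 79.8 and 97.6 in LSM1, and lay between 5.67 and 15.8 in the 6 PAT1 libraries. It fell in LSM1 (-1.24 ± 0.30, SE, limma adjusted p 0.00219), and the contrast was -1.12 ± 0.52 (SE, adjusted p 0.240). PHO84 and SPL2 were picked after their values were seen.

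The remaining genes named by rule had a lower change in LSM1. RGI2 (YIL057C), which acts in respiratory energy metabolism, went from 2764, 3889 and 3529.8 CPM to 1170.0, 114 and 151 in LSM1. In PAT1 it went from 1672, 1981 and 2829.5 CPM to 1272, 1079 and 1365, and in WT the change was -2.08 (limma adjusted p 0.0237). LSM1 fell furthest, with the first IAA library far less affected, and the contrast was -2.86 ± 0.76 (SE, limma adjusted p 0.0271, called in 4 of 12 fits that left out 1 library).

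TIP1 (YBR067C), a cell wall mannoprotein, went from 2164, 1631 and 2611 CPM to 1695, 459 and 1036 in LSM1 and from 477, 735 and 786 to 926, 1515 and 1537 in PAT1. The LSM1 change was -1.18 ± 0.35 and the PAT1 value 0.98 ± 0.33 (SE, limma adjusted p 0.0130 and 0.151), so only the first passed. The contrast was -2.16 ± 0.48 (SE, limma adjusted p 0.0116), lost without the second LSM1 IAA library (adjusted p 0.0574, other settings 0.000135 to 0.265).

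ANB1 (YJR047C), the hypoxic form of the translation factor eIF5A, went from 35.3, 19.7 and 54.8 CPM to 7.89, 6.60 and 8.95 in LSM1. In PAT1 it lay between 4.82 and 10.1 CPM in all 6 libraries. LSM1 fell to the PAT1 level (0.02 ± 0.40 apart in IAA, SE, limma adjusted p 0.977), and the contrast was -2.15 ± 0.53 (SE, adjusted p 0.0188, called in 8 of 12 such fits). ANB1 has a near-identical paralog, so its count is uncertain.

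CIS1 (YLR346C) went from 19.5, 16.6 and 14.0 CPM to 9.37, 5.01 and 4.36 in LSM1 and from 16.9, 12.0 and 12.3 to 20.7, 15.5 and 17.1 in PAT1. TMA10 (YLR327C), a ribosome-associated protein, went from 878, 938 and 825 CPM to 555, 324 and 305 in LSM1 and from 460.4, 508 and 574 to 545, 648 and 709.8 in PAT1. In both genes the LSM1 groups do not overlap and every PAT1 pair goes up. The contrasts were -1.86 ± 0.35 and -1.51 ± 0.32 (SE, limma adjusted p 0.00229 and 0.00803), and both were called in all 12 fits that left out 1 library.

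FAT3 and CIT2 show the weight of the first LSM1 IAA library. FAT3 (YKL187C), required for fatty acid uptake, stood at 752, 841 and 1099 CPM in LSM1 DMSO and 645, 115 and 204 in LSM1 IAA, and CIT2 (YCR005C), peroxisomal citrate synthase, at 3541, 5116 and 5449 and then 4210.1, 1168 and 1529. In PAT1 FAT3 lay between 457 and 904 CPM and CIT2 between 3041 and 5433. The contrasts were -1.85 ± 0.53 and -1.73 ± 0.44 (SE, limma adjusted p 0.0443 and 0.0209), called in 3 and 6 of 12 such fits, and were -2.50 and -2.25 without that library.

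The last of the named genes were Unit6437, which has no RefSeq entry, at -1.63 ± 0.37, YER084W at -1.41 ± 0.37, SAE3 at -1.40 ± 0.41 and TDA4 at -1.37 ± 0.36 (SE, limma adjusted p 0.0127, 0.0263, 0.0496 and 0.0232). SAE3 (YHR079C-A), a helper of the meiotic recombinase Dmc1, stood at 45.9, 111 and 49.8 CPM in LSM1 DMSO and 43.5, 19.5 and 17.5 in LSM1 IAA. In PAT1 it lay between 85.9 and 126 CPM in all 6 libraries. PLB2 (YMR006C), a phospholipase B, was the 1 that passed of 8 phospholipase genes, where 1.53% of all genes were lower. It went from 754, 351 and 821 CPM to 235, 177 and 258 in LSM1 and lay between 199 and 326 in PAT1. The contrast was -1.32 ± 0.38 (SE, limma adjusted p 0.0415, called in 3 of 12 fits that left out 1 library).

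Early meiotic genes were lower in LSM1 than in PAT1 in DMSO, and by more in IAA. Of 31 genes for recombination and synapsis, 30 were lower in LSM1 than in PAT1 in DMSO (17.6% of all genes were) and 31 in IAA (22% of all genes), with medians of -1.33 and -2.17. In LSM1 28 of the 31 fell, with a median change of -1.03, where 10.4% of all genes fell. In PAT1 none passed, with a median of -0.20.

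In the contrast 3 of the 31 passed, all lower, where 1.53% of all genes were, with a median of -0.88. They were SAE3, REC107 at -1.10 ± 0.26 and SPO16 at -1.11 ± 0.33 (SE, limma adjusted p 0.0153 and 0.0495 for the last 2). The replicate block called 14 and the fit without the first LSM1 IAA library 16, all lower. These fits called 9.73% and 8.58% of all genes lower. Without the third LSM1 IAA, the third PAT1 IAA or the second PAT1 DMSO library none passed, without the second LSM1 IAA, the second LSM1 DMSO, the first PAT1 IAA or the third PAT1 DMSO library 1 did, and without the first LSM1 DMSO library 7 did. REC107 (YJR021C), a factor for meiotic DNA breaks, stood at 109.7, 159 and 126 CPM in LSM1 DMSO, 79.3, 71.3 and 61.2 in LSM1 IAA, and 134 to 195 in the 6 PAT1 libraries.

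Neither IME1 nor IME2 passed in the contrast over all libraries. IME1 (YJR094C), the activator of meiotic entry, lay between 2344 and 3660.1 CPM in LSM1 and between 3472 and 4942 in PAT1, with a contrast of -0.30 ± 0.22 (SE, limma adjusted p 0.483). IME2 (YJL106W), the early meiotic kinase, stood at 961, 2042 and 1350.5 CPM in LSM1 DMSO and 1035, 509 and 391 in LSM1 IAA, and at 4066, 3331 and 3926 and then 3348, 2152 and 2555 in PAT1. The IME2 level in LSM1 was below PAT1 by -1.44 in DMSO and -2.17 in IAA (limma adjusted p 0.000362 and 6.5e-08), and the contrast was -0.73 ± 0.43 (SE, adjusted p 0.363). The IME2 contrast was -1.10 without the first LSM1 IAA library (limma adjusted p 0.0469). In that fit 6 of 18 meiotic entry regulators were lower, where 8.58% of all genes were, against none with that library.

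Histone messengers fell in LSM1 without being lower there in DMSO. Of 11 genes 10 fell (10.4% of all genes did), with a median change of -1.28, while none passed in PAT1, with a median of -0.38. In DMSO none of the 11 differed between LSM1 and PAT1 by test, with a median of 0.38. In the contrast 2 passed, both lower (1.53% of all genes), with a median of -0.89, and the replicate block called 10 lower (9.73% of all genes). The 2 are HTZ1 (YOL012C), the variant H2A.Z, at -1.17 ± 0.30, and HHO1 (YPL127C), linker histone H1, at -1.06 ± 0.26 (SE, limma adjusted p 0.0203 and 0.0176), each called in 7 of 12 fits that left out 1 library. HTZ1 stood at 51.9, 103 and 70.6 CPM in LSM1 DMSO and 34.6, 30.4 and 25.0 in LSM1 IAA, against 79.5 to 107 in the 6 PAT1 libraries, and it also fell in WT (-0.78, limma adjusted p 0.0173). Without the first LSM1 IAA library 5 histone genes passed, where 8.58% of all genes were lower. None did without the third LSM1 IAA, the second LSM1 DMSO, the third PAT1 IAA or the second PAT1 DMSO library.

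Markers of meiotic stage were lower in the LSM1 libraries than in the PAT1 libraries. The summed abundance of 8 early meiotic markers, none of them at 0, was 7029 to 12140 CPM in LSM1 DMSO, 4299 to 7914 in LSM1 IAA, 15122 to 18157 in PAT1 DMSO and 12308 to 18050 in PAT1 IAA, with 14568 to 16403 in WT DMSO and 11647 to 14928 in WT IAA. For 7 middle and late sporulation markers, none at 0, it was 56.7 to 137 CPM over the LSM1 libraries and 507 to 1966 over the PAT1 libraries, with 126 to 591 in WT. The 7 haploid markers in the table summed to 41.5 to 72.7 CPM in the LSM1, PAT1 and WT libraries. In bulk RNA, fewer cells at a stage and less RNA of that stage per cell cannot be told apart, and the part of stage in the differences between strains was not tested.

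The strains also differed widely in DMSO, in cultures labelled 4 h like those with IAA, which bears on how the contrast reads. In DMSO 2128 genes (36.5%) differed between LSM1 and PAT1, and in IAA 2664 (45.7%). Against WT in DMSO the LSM1 strain differed in 1759 genes (30.2%) and the PAT1 strain in 3 (0.0515%). The 76 genes with a higher contrast had a median LSM1 minus PAT1 level of -0.13 in DMSO and 0.94 in IAA, and the 89 lower ones 0.22 and -0.74.

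Cytoplasmic ribosomal protein genes differed in level. Of 126 tested, 104 were higher in LSM1 than in PAT1 in DMSO and 118 in IAA, where 18.9% and 23.7% of all genes were higher, with medians of 1.31 and 1.87. None of them passed in the contrast, whose median was 0.54. Without the first LSM1 IAA library 2 were higher, where 8.37% of all genes were, and the median was 1.08. Of 42 amino acid synthesis genes 32 were higher in DMSO and 37 in IAA, and 1 passed in the contrast, where 1.3% of all genes were higher. Without the first LSM1 IAA library 7 passed, where 8.37% of all genes were higher, with a median of 0.75 in place of 0.39. The 1 gene is SER33, which makes the first precursor of serine, at 1.12 ± 0.28 (SE, limma adjusted p 0.0203, called in 7 of 12 fits that left out 1 library). Iron uptake genes were higher in LSM1 for 15 of 23 in DMSO and 18 in IAA, while proteasome genes were lower for 22 of 35 in DMSO and 29 in IAA, where 17.6% and 22% of all genes were lower.

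Among the iron genes 2 passed in the contrast, AFT2 and CCC2, both higher, where 1.3% of all genes were. Without the first LSM1 IAA library 3 did, where 8.37% of all genes were higher. CCC2 (YDR270W), which loads copper onto the iron oxidase, went from 439, 329 and 472 CPM to 1057, 1195 and 1284 in LSM1 and from 247, 352 and 278 to 266, 465 and 333 in PAT1. Every library pair goes up in both strains, by more in LSM1, and the contrast was 1.28 ± 0.34 (SE, limma adjusted p 0.0271, called in 5 of 12 such fits).

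**Figure D4:**
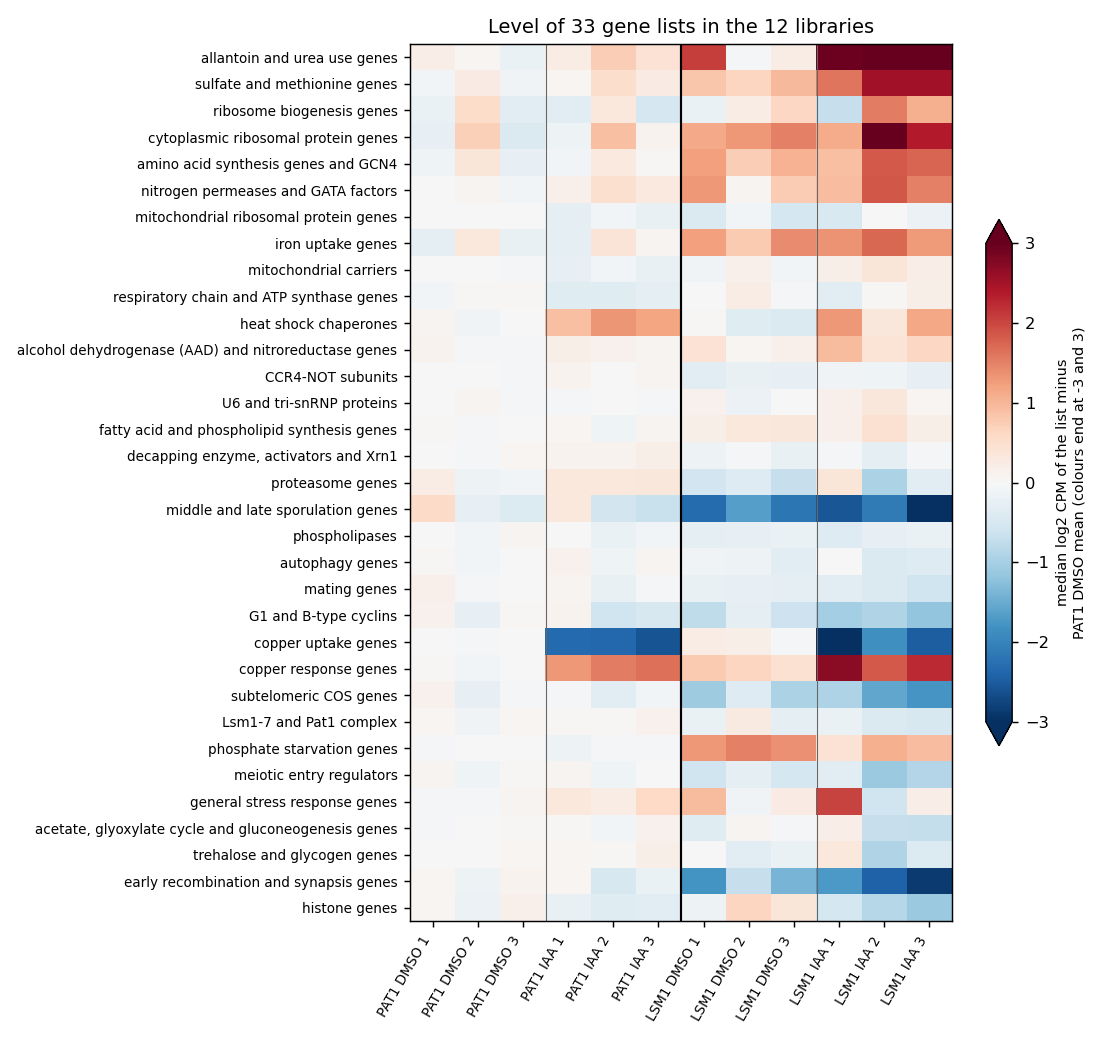
Heat map of the median level of each of the 33 lists (rows) in each of the 12 libraries (columns), as log2 CPM minus the mean of PAT1 DMSO, red above and blue below it. Allantoin genes stand at 2.94 to 4.07 in the 3 LSM1 IAA libraries against 0.21 to 0.73 in PAT1 IAA, and early recombination genes at -1.73 to -2.86 against 0.06 to -0.48.

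Copper genes changed in both strains and in WT, where CUP1-1 averaged 7.69 CPM in DMSO and 1749 in IAA. A change between DMSO and IAA thus takes in a copper response. CUP1-1 rose from 16.5, 12.8 and 9.12 CPM to 4775, 2448 and 3071 in LSM1 and from 7.98, 6.47 and 8.94 to 1249, 2298 and 2218 in PAT1, with a contrast of 0.14 ± 1.07 (SE, limma adjusted p 0.957). Its repeated copies and genes that overlap it cannot be told apart in the counts. CTR3 (YLR411W), a copper importer, fell from 1173, 2184 and 1019 CPM to 12.8, 15.4 and 10.2 in LSM1 and from 3259.6, 2399 and 2633 to 86.5, 60.5 and 56.9 in PAT1, with a contrast of -1.41 ± 0.96 (SE, limma adjusted p 0.447). All 3 same-number CTR3 changes were lower in LSM1 than in PAT1, and with IAA its level was lower in LSM1 by -2.41 ± 0.60 (SE, limma adjusted p 0.00102). The SE of these contrasts leaves room for sizeable differences.

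In counts, 3 of 5 copper response genes rose and 4 of 7 copper uptake genes fell in both strains, and none of the 12 passed in the contrast. Of all genes 8.13% rose and 10.4% fell in LSM1, and 1.06% rose and 0.275% fell in PAT1. Of 27 heat shock chaperone genes 21 rose in LSM1 and 16 in PAT1, where 8.13% and 1.06% of all genes rose, with median changes of 1.15 and 1.06. None of them passed in the contrast, whose median was 0.19. Without the first LSM1 IAA library 1 was lower, where 8.58% of all genes were, and the median was 0.01.

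Of the 33 lists, 16 held at least 1 gene that passed in the contrast: 7 only higher, 7 only lower and 2 both. Mitochondrial carriers were one of the mixed lists, with 3 of 19 passing, where 2.83% of all genes did. Without the first LSM1 IAA library 5 were higher and 2 lower, where 8.37% and 8.58% of all genes were. PET9, the main ADP/ATP carrier, had a contrast of 1.14 ± 0.33 and PIC2, a copper and phosphate carrier, one of 1.03 ± 0.25, whereas AAC1, a minor ADP/ATP carrier, had one of -1.03 ± 0.29 (SE, limma adjusted p 0.0429, 0.0188 and 0.0386). AAC1 fell in both strains, by 2.32 in LSM1 and by 1.30 in PAT1. Of 20 genes for acetate use and gluconeogenesis, FBP1, the gluconeogenic bisphosphatase, passed at 1.39 ± 0.37 and CIT2 at the value above (limma adjusted p 0.0271 for FBP1), where 2.83% of all genes passed. Without the first LSM1 IAA library 2 of the 20 were higher and 9 lower, where 8.37% and 8.58% of all genes were.

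Mitochondrial ribosomal protein genes passed for 3 of 70, all higher, where 1.3% of all genes were, with a median contrast of 0.30. The replicate block called 20 higher and 1 lower, where 7.31% and 9.73% of all genes were. With the first LSM1 IAA library left out 25 were higher, where 8.37% of all genes were. The 3 are MRPL35 at 0.74, MRPS18 at 0.69 and MRPL51 at 0.63 (limma adjusted p 0.0196, 0.0413 and 0.0432), and MRPL51 overlaps another annotated gene. Autophagy genes passed for 1 of 36, a share near the 2.83% of all genes and so no result about the list, and 6 were lower without the first LSM1 IAA library, where 8.58% of all genes were. The 1 gene is ATG18, which binds membrane phosphoinositides, at -0.57 ± 0.16 (SE, limma adjusted p 0.0392, called in 5 of 12 fits that left out 1 library).

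The other 17 lists gave no call in the contrast over all libraries. Besides those described these were the meiotic entry regulators (18 genes, median -0.37), middle and late sporulation genes (29, -0.14), cyclins (11, -0.19), mating genes (20, -0.17), trehalose and glycogen genes (18, -0.42), general stress genes (25, -0.37), fatty acid and phospholipid synthesis genes (22, -0.04), subtelomeric COS genes (7, -0.32), ribosome biogenesis genes (81, 0.56), respiratory chain genes (41, 0.20) and proteasome genes (35, -0.13). At an unadjusted p under 0.05, 1058 of all 5828 genes would pass. Leaving out the first LSM1 IAA library gave calls in several of these lists, in a fit that called 8.37% of all genes higher and 8.58% lower. Of the trehalose and glycogen genes 8 were then lower (median -0.71), of the general stress genes 1 was higher and 6 lower (median -0.89), of the respiratory chain genes 9 were higher and 2 lower (median 0.38), of the ribosome biogenesis genes 6 were higher (median 1.23) and of the proteasome genes 3 were lower (median -0.45). Of the middle and late sporulation genes 2 were lower, of the cyclins 1, and of the fatty acid and phospholipid synthesis genes 1 was higher and 2 lower. The replicate block called 7 respiratory chain genes higher and 1 lower, 4 sporulation genes higher and 6 lower, and 4 general stress genes higher and 2 lower. Of all genes it called 7.31% higher and 9.73% lower.

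The sign of every list's median contrast stayed the same under both other scalings, but in 8 lists it turned when 1 library was left out. Middle and late sporulation genes went from -0.14 to as far as 0.36 without the second LSM1 DMSO library, and general stress and proteasome genes to 0.17 and 0.19 without the second LSM1 IAA library. Iron uptake genes went from 0.22 to as far as -0.08 without the second PAT1 DMSO library. The AAD and nitroreductase, decapping, U6 and fatty acid and phospholipid synthesis lists turned to values between -0.05 and 0.04.

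**Figure D5:**
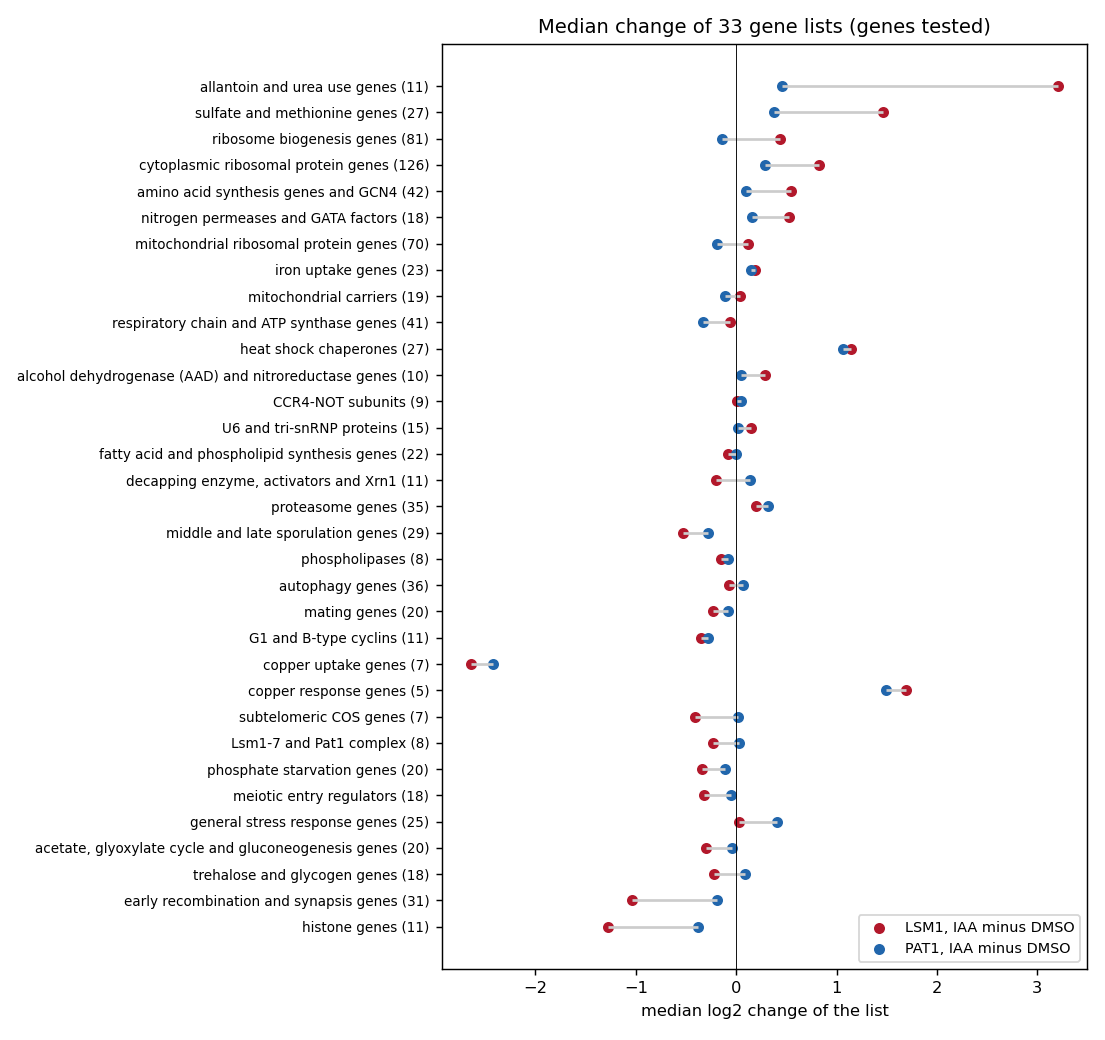
Median change (horizontal axis, log2 IAA minus DMSO) of the 33 lists in LSM1 (red) and in PAT1 (blue), 1 row per list ordered by the median contrast, with the number of genes tested in brackets. The widest gap is that of the allantoin genes, at 3.21 in LSM1 and 0.46 in PAT1, and at the other end histone genes stand at -1.28 and -0.38.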

How the data were processed

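The authors deposited 1 table of whole-number read counts per gene (6171 genes) and library. Its columns also hold labels and the authors' principal component scores above the genes, so the unit of a whole column is other than counts and the scores were not used, nor were 6 columns that match no sample. Per the submitters' processing notes, STAR 2.7.10a, RSEM 1.3.1 and DESeq2 1.48.1 were named, with no role given; the genome build is not given in the sources used here, so no coordinates or sequences are printed. RefSeq R64 served only for names and overlaps (5626 identifiers, 91.2%).

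Genes reaching 0.484 CPM (10 counts at the median library) in 3 libraries and 15 counts in all were kept, which removed 343. Library sizes were corrected by TMM (trimmed mean, trims 0.3 and 0.05). With 0.5 counts added as pseudocount, log2 CPM entered limma 3.58.1 (R 4.3.3) with voom weights, 1 mean per group over 66 libraries with 44 residual degrees of freedom, two-sided, with Benjamini-Hochberg adjustment over 5828 genes. The procedure was run on simulated counts with the same spread setting for every gene and group. That run covers neither a noisier group nor an outlying library nor pairing, so it cannot bear on the counts that moved with these. The plan named a count model, which limma replaced because of the mixed columns.

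Same-number IAA and DMSO residuals correlated with r 0.163 to 0.355 in LSM1 and 0.380 to 0.456 in PAT1, every pair over 0.1. Between unlike numbers r was -0.386 to 0.209 in LSM1 and -0.328 to -0.105 in PAT1. The second LSM1 IAA library correlated more with the third LSM1 DMSO library (0.209) than with the second (0.163). The pairing used for the block is thus read from the data and not the labels, and it is less clear in LSM1 than in PAT1. Genes named are the 12 with the largest contrast in each direction among those called, with a mean of at least 10 CPM and non-overlapping same-number changes, plus the complex, the decapping enzymes and up to 4 called members per list; others are said to be chosen after their values were seen. The genes and lists were chosen with earlier results of these data known. Alternatives were other scalings, filters, weights, blocks, the 12 libraries alone and each library left out. Figures were drawn in Python 3.11.15 with matplotlib 3.10.9.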

Additional observations from a re-analysis of the deposited data

Results flagged for a closer look

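The genes named by rule are flagged because the response to the additions differed between the LSM1 and PAT1 strains by the limma test of the difference itself (3 libraries per group). The LSM1 change minus the PAT1 change was 5.49 log2 for DAL4, 3.97 for DAL1, 3.92 for DCG1, 2.99 for DAL5, 2.56 for OPT1, 2.40 for FRM2, 2.13 for AAD6, 1.99 for UPS2, 1.95 for STR3, 1.86 for MET1, 1.78 for SUL1 and 1.73 for STL1. It was -2.86 for RGI2, -2.16 for TIP1, -2.15 for ANB1, -2.07 for PHO5, -1.86 for CIS1, -1.85 for FAT3, -1.73 for CIT2, -1.63 for Unit6437, -1.51 for TMA10, -1.41 for YER084W, -1.40 for SAE3 and -1.37 for TDA4. When the LSM1 change was set against the WT change, DAL1, FRM2, AAD6, UPS2, STL1 and PHO5 also passed (limma adjusted p 1.41e-06 to 0.0468). The other genes named by rule did not pass against WT (limma adjusted p 0.0518 to 0.834). Both comparisons use the same LSM1 libraries. The rule required that the 3 same-number LSM1 changes lie on one side of the 3 PAT1 changes, so that is no support for the named genes. Groups of 3 libraries are too small to test a single library as an outlier.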

How the results depend on the processing

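The contrast count of 165 was 4 with the 12 libraries alone, 16 with group quality weights, 993 with the replicate block over 66 libraries, 36 with the replicate block over 12, and 51 to 988 with 1 library left out. The LSM1 count of 1079 was 416, 167, 2187 and 711 under those settings, and 579 to 2071 with 1 library left out. The PAT1 count of 78 was 20, 300, 436 and 13, and 21 to 102. A replicate block with quality weights, chosen after seeing the data, gave 387 in LSM1, 1336 in PAT1 and 153 in the contrast. For levels, same-number r between the strains was -0.089 to 0.078 in DMSO and -0.081 to 0.289 in IAA, with no steady pairing. The DMSO count of 2128 was 1343 with the 12 libraries and 1038 with the replicate block over them (1534 to 2297 with 1 library left out). The IAA count of 2664 was 1570 with quality weights and 1564 with that block (2052 to 3163).

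Median-of-ratios scaling (162), total counts (190), no filter (156), a mean of at least 10 counts (187) and no voom weights (160) kept the contrast count within 1.5 times; total counts shifted the split in LSM1 to 349 higher and 865 lower and in PAT1 to 49 and 34. Of the 24 genes named by rule, all stayed called with the block over 66 libraries, 6 with quality weights and 1 with the 12 libraries alone, and none changed sign under any setting. The cause of these moves was not tested. What depth limits is the low genes, whose values near the 3-count floor rest on few reads.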

Other observations

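Some called genes outside the lists share a role; they were picked after their values were seen and not tested as groups. TIR4, CWP2 and DAN1 are cell wall protein genes with a lower contrast. TIR4 (YOR009W), a cell wall mannoprotein, went from 202, 131 and 172 CPM to 74.6, 60.3 and 58.8 in LSM1 and from 108, 118 and 123 to 99.0, 113 and 117 in PAT1. Its contrast was -1.28 ± 0.17 (SE, limma adjusted p 4.38e-06), called in all 12 fits that left out 1 library. In DMSO TIR4 was higher in LSM1 than in PAT1 (0.51, limma adjusted p 0.00101). CWP2 (YKL096W-A), another wall mannoprotein, went from 104, 99.1 and 93.2 CPM to 48.1, 43.7 and 41.2 in LSM1, with a contrast of -1.08 ± 0.26 (SE, limma adjusted p 0.0176), and it also fell in WT (-0.75, adjusted p 0.0145). CWP2 is the gene with a lower contrast that passed in the 12 libraries alone. DAN1, an anaerobic wall protein, had -3.62 ± 1.05 (SE, limma adjusted p 0.0447) at 0.187 to 9.48 CPM in LSM1.

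The next 4 genes, which act on glutathione or cysteine, had a higher contrast. ECM38, which breaks down glutathione, had 0.68 ± 0.16, DUG3, of the cytosolic glutathione-degrading complex, 1.04 ± 0.25, YCF1, the vacuolar glutathione-conjugate pump, 1.07 ± 0.29, and YCT1, a cysteine transporter, 1.59 (SE where given, limma adjusted p 0.0142, 0.0176, 0.0303 and 0.0439). DUG3 went from 44.2, 52.3 and 54.8 CPM to 86.7, 108 and 107 in LSM1 and from 57.5, 67.7 and 61.9 to 51.8, 72.1 and 58.9 in PAT1.

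CKS1, CDC28, TUB1 and SPC25, which act in cell division, had a lower contrast, while none of 11 genes in the list of cyclins passed. CKS1 (YBR135W), the small partner of the cyclin-dependent kinase, went from 58.7, 78.0 and 65.3 CPM to 51.4, 40.5 and 40.3 in LSM1 and from 79.6, 64.7 and 77.4 to 84.2, 97.9 and 109 in PAT1. Its contrast was -1.0 ± 0.20 (SE, limma adjusted p 0.00377), called in all 12 fits that left out 1 library. The kinase gene CDC28 had -0.78 ± 0.23, alpha-tubulin TUB1 -1.10 ± 0.30 and the kinetochore gene SPC25 -1.04 (SE where given, limma adjusted p 0.0469, 0.0308 and 0.0129). CDC28 was lost in 8 of those fits and TUB1 in 7. The summed early meiotic markers were 7029 to 12140 CPM in LSM1 DMSO and 4299 to 7914 in LSM1 IAA, ranges that overlap. The part of meiotic stage in these values was not tested.

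GCV1 (YDR019C), of the glycine cleavage complex, went from 726, 514 and 614 CPM to 455, 276 and 327 in LSM1 and from 317, 351 and 342 to 362, 381 and 454 in PAT1. The contrast was -1.07 ± 0.21 (SE, limma adjusted p 0.00393), called in all 12 such fits, and GCV1 also fell in WT (-0.62, adjusted p 0.00336). RTG2 (YGL252C), a sensor of mitochondrial function, went from 126, 108 and 112 CPM to 212, 182 and 211 in LSM1 and lay between 129.8 and 149.8 in PAT1, with a contrast of 0.70 ± 0.14 (SE, limma adjusted p 0.00582), also called in all 12.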
